A study of Homo sapiens with 3 samples.

Results

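The heat shock chaperones HSPA1A, HSPA1B, HSPA6, HSPA8, DNAJB1, HSPH1, HSP90AA1, HSPB1 and HSPD1 and the co-chaperone BAG3 were followed in PANC-1 cells exposed to inhibitors of protein phosphatase 2A (PP2A). The members were listed by name and found through the transcript accession of each probe, which gave 10 genes of 19699 named genes and 15 of 34041 probes. Each of the 10 genes had at least 1 probe. Most of these proteins work in the cytosol, but HSPD1 is the mitochondrial chaperonin HSP60, and BAG3 regulates chaperones rather than folding proteins itself.

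PANC-1 is an established line from a human pancreatic carcinoma. Its total RNA was labelled with Cy3 and hybridised to human oligonucleotide arrays, where a spot is the brighter the more of its transcript is present. The 3 arrays held RNA of untreated control cells, of cells exposed to 20 µM cantharidin (CAN) and of cells exposed to 20 µM okadaic acid (OA), both for 24 h, with 1 array per group. The doses are those of the sample labels, whose treatment text names the concentration once for both agents. Cantharidin is a terpenoid from blister beetles and okadaic acid a polyether toxin from marine algae, and both inhibit PP2A, which removes phosphate groups from many kinases. In the study the arrays served to look at the mRNA of genes tied to blood vessel growth under both inhibitors, and the chaperones are read here from the same arrays. No difference reported here has a replicate check, no test across arrays was possible, and the array and the treatment cannot be told apart. Both agents were set against the same control array, so an error of that array enters both differences alike.

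Heat shock proteins keep other proteins folded. When damaged proteins accumulate, the transcription factor HSF1 is released from chaperones, is phosphorylated, forms trimers and binds heat shock elements in front of the chaperone genes. These elements alternate the letters GAA with TTC, which is GAA read on the other strand. HSP70 proteins then bind exposed stretches of unfolded protein in cycles that are started by J-domain proteins such as DNAJB1 and reset by exchange factors such as HSPH1 and BAG3, while HSP90 takes over clients that are nearly folded, kinases among them.

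Differences are given on the log2 scale after the processed intensity of each array was divided by its 75th percentile, which was 784 intensity units for control, 713 for CAN and 936 for OA. Each gene takes the values of whichever probe was brightest on average over the arrays (mean of the log2 signals), and a difference of at least 1.5-fold is counted as higher or lower. Every one of the 15 member probes was well above background on all 3 arrays. The scanner software put the error of a member signal at 10.0% to 12.3%, which gives an error of 0.20 to 0.23 for a log2 difference. Replicate spots of the same probe had a median SD of 0.06 to 0.09 on the log2 scale within an array. Neither error covers variation between cultures. In RNA from whole cultures, fewer cells with a transcript and less of that transcript per cell cannot be told apart. PANC-1 is an epithelial line, and 5 of 5 epithelial markers had signals well above background in control cells, while CDH1 had none on either treated array. Of 19 markers of other cell types, 12 had signals well above background in control cells, 14 under CAN and 11 under OA, with summed intensities of 7905, 8051 and 16924. The largest share of these sums came from CD68, with 2945, 3895 and 12731, and the part of the markers in the results was not tested.

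The first comparison asked how the chaperones stood after CAN. BAG3 and HSPA6 had higher signals, by 3.09-fold and 2.41-fold, and HSPD1, DNAJB1 and HSPA1A had lower signals, by 3.53-fold, 2.85-fold and 1.53-fold. The remaining 5 members differed by less than 1.5-fold. So 2 of 10 members were higher, where 27.5% of the 16644 genes compared were, and 3 of 10 were lower, against 34.1% of all genes. The median log2 difference of the members was -0.01, and that of all genes was -0.16. These shares were near those of all genes, and the median of the members ran from -0.15 to 0.06 over 6 alternatives of scaling or background correction, so that its sign was not settled. HSPA6 is counted by 1 of its probes, and the other gave a log2 difference of -0.78 for CAN. With the median over probes, 1 of 10 members was higher and 3 lower, with a median of -0.24.

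Under OA more of the members were higher. HSPA6 (13.4-fold), HSPA1B (4.29-fold), HSPH1 (3.08-fold), BAG3 (2.26-fold), HSPA1A (2.13-fold) and HSP90AA1 (1.88-fold) exceeded control, and HSPA8 and HSPD1 were lower by 1.97-fold and 1.60-fold. That is 6 of 10 members higher, where 28.1% of the 16166 genes compared were higher, and 2 of 10 lower, against 28.8%. The median of the members was 1.0, against 0.01 for all genes. The HSPA6 probe was chosen through its OA signal, and the other HSPA6 probe gave a log2 difference of -0.12 for OA. HSP90AA1 is counted by 1 of its 3 probes, and the others gave -1.51 and -1.97. When each gene was represented by the median over its probes instead, 5 of 10 members were higher and 4 lower, with a median of 0.44.

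Set directly against CAN, OA gave 7 of 10 members a signal at least 1.5-fold higher and 1 of 10, HSPA8, a lower one. Among all 16200 genes compared, 29.5% were higher and 22.3% lower. The median of the members was 1.2, and that of all genes 0.13. With the median over probes, 6 of 10 were higher and 3 lower, with HSP90AA1 (-1.23) and HSPB1 (-0.80) among the lower. BAG3 (-0.45) and HSPB1 probe 1 (-0.18) differed between the agents by less than 1.5-fold, though HSPB1 probe 2 was 2.70-fold lower under OA than under CAN and BAG3 reached -0.60 with median scaling.

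**Figure D1:**
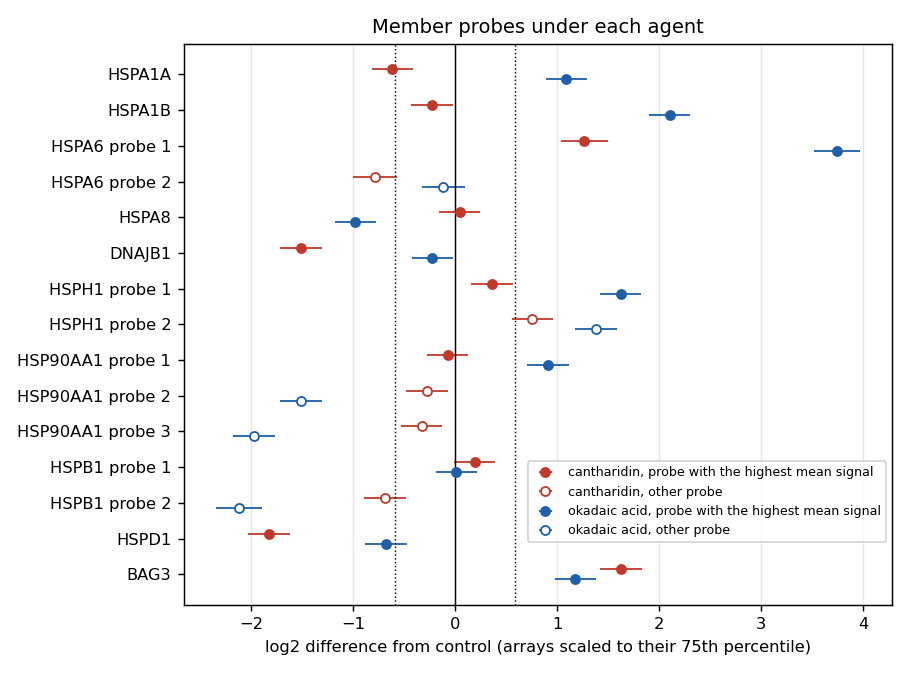
Log2 difference from control (horizontal axis) of each of the 15 member probes under cantharidin (red) and okadaic acid (blue), with the probe that represents a gene filled and other probes open. Bars show the error given by the scanner software, and dotted lines mark 1.5-fold. HSPA6 probe 1 lies farthest to the right under okadaic acid, at 3.74, and the other probes of HSP90AA1 and HSPB1 lie to the left of the filled points.

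HSPA1A and HSPA1B lie side by side on chromosome 6 and encode nearly identical cytosolic HSP70 proteins. The HSPA1A probe had an intensity of 97303 in control cells, 57806 under CAN and 247615 under OA. Its 10 spots on each array are copies within that array, and their intensities are given before scaling. They ranged from 93253 to 102357 around a median of 97924 for control, from 55852 to 64267 around 57105 for CAN, and, in the 9 unflagged spots, from 224490 to 278131 around 238105 for OA. The log2 difference from control was -0.61 ± 0.07 for CAN and 1.09 ± 0.12 for OA (SD from replicate spots). The CAN difference lay close to the 1.5-fold mark. Under the 6 alternatives it lay between -0.75 and -0.54 and passed the mark in 2, whereas the OA difference passed it in 6 of 6.

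HSPA1B gave 31359 intensity units in control cells, 24369 under CAN and 160636 under OA. The log2 differences were -0.23 for CAN and 2.10 for OA, each with a software error of 0.20. So its OA signal was 4.29-fold higher than control and 5.02-fold higher than CAN, and its CAN signal was within 1.5-fold of control. The OA difference stood at position 1062 of 16166 genes ordered from the highest. Whether the HSPA1A and HSPA1B probes each read only their own gene was not tested, so the genes may not be separate measurements.

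HSPA6 encodes HSP70B', a form of HSP70 that most cells make only under strong stress. Its probe 1 had an intensity of 119 in control cells, which was 3.41 times the floor of that array (the dimmest signal still well above background), 261 under CAN and 1906 under OA. The log2 differences were 1.27 ± 0.23 for CAN and 3.74 ± 0.23 for OA (software error, as the probe had 1 spot). OA was therefore 13.4-fold above control, position 209 of 16166 genes, and 5.56-fold above CAN. Because the control signal was dim, the size depended on the background correction. With the normexp correction the log2 differences were 0.84 and 2.93, and in the table of normalized values they were 1.54 and 4.12.

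HSPA6 also had a probe 2, listed under the same transcript, with other values. Its intensity was 362 in control cells, 191 under CAN and 399 under OA. The log2 differences were -0.78 for CAN and -0.12 for OA, so probe 2 was 1.72-fold lower under CAN and within 1.5-fold of control under OA. The choice of probe 1 followed the highest mean over the arrays, which its OA signal decided, since probe 2 was the brighter of the pair on the control array. With the median over both probes, HSPA6 had differences of 0.24 for CAN, which is within 1.5-fold, and 1.81 for OA. The probes' binding to other transcripts of the family was not tested.

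**Figure D2:**
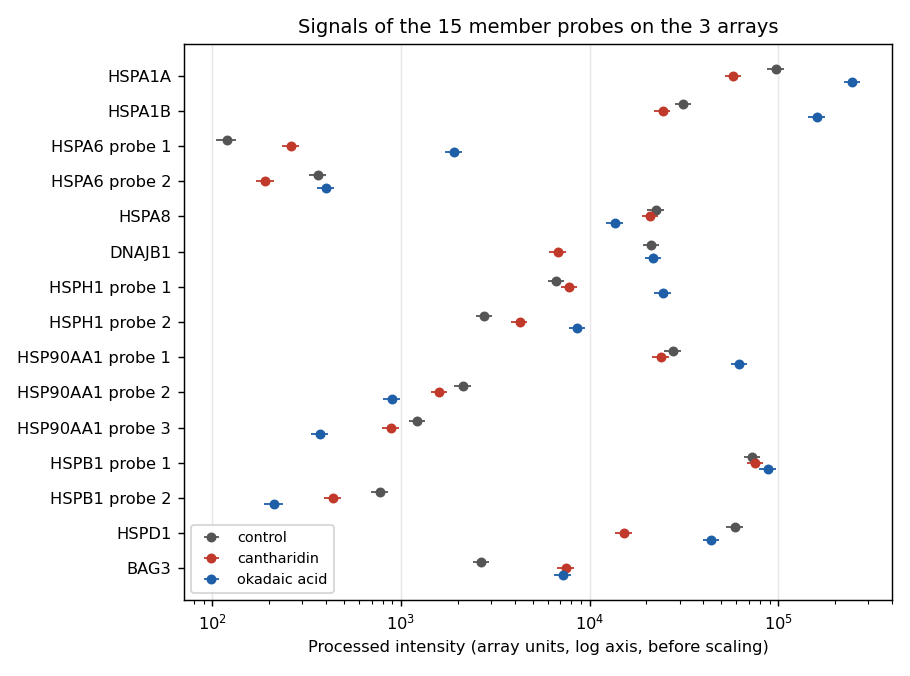
Processed intensity (horizontal log axis, array units, before scaling) of the 15 member probes in control (grey), cantharidin (red) and okadaic acid (blue) cells, with bars for the error given by the scanner software. The signals run from 119 for HSPA6 probe 1 in control cells to 247615 for HSPA1A under okadaic acid.

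**Figure D3:**
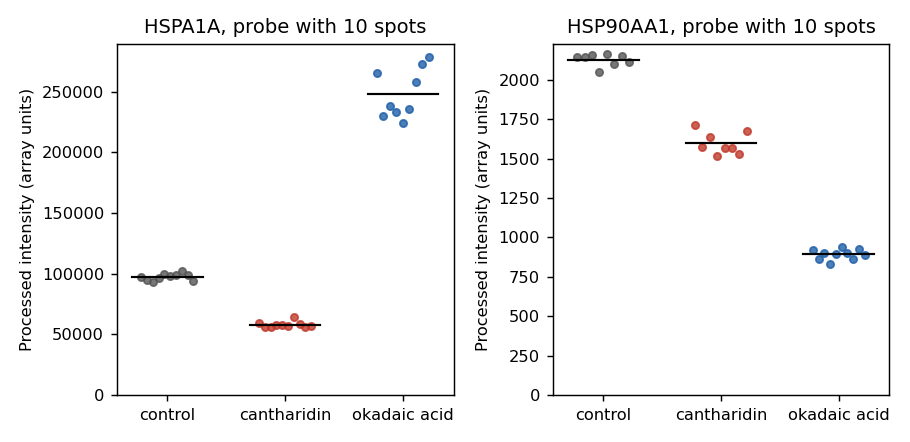
Processed intensity of each unflagged spot (points) and the mean (line) of the HSPA1A and HSP90AA1 probes that had 10 spots per array, on linear axes from 0. The spots of the 3 arrays do not overlap for either probe, and okadaic acid stands highest for HSPA1A and lowest for the HSP90AA1 probe.

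HSPA8 encodes HSC70, the HSP70 that cells make without stress. Its signal was 22440 in control cells, 21025 under CAN and 13618 under OA. The log2 difference was 0.04 for CAN and -0.98 for OA, with a software error of 0.20 each. Thus the constitutive member was lower under OA by 1.97-fold, while HSPA1A, HSPA1B and HSPA6 probe 1 were higher. With those 6 alternatives the OA difference stayed between -1.10 and -0.72, and the sign of the CAN difference turned without scaling (-0.09). The files list the HSPA8 probe under a single one of the gene's transcripts, and which of them it measures was not tested.

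The regions in front of these HSP70 genes were read from RefSeq (GRCh38.p14), to show the heat shock elements beside the expression values. The BAG3 region was added because BAG3 had higher signals under both agents. Each line gives the 250 bases before the annotated start on the strand of the gene, 5′ to 3′, and capitals mark matches to GAANNTTC or TTCNNGAA, where N is any base.
HSPA1A, chr6:31815293-31815542, plus strand: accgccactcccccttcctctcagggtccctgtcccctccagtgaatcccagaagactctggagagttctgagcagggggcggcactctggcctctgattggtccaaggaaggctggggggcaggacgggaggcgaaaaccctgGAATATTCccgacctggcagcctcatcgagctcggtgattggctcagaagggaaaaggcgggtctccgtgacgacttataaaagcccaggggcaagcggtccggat
HSPA1B, chr6:31827488-31827737, plus strand: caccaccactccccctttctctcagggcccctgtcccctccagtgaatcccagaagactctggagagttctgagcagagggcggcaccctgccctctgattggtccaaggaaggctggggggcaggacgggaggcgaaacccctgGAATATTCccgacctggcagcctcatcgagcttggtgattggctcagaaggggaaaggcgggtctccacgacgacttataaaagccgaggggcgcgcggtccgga
HSPA6, chr1:161524290-161524539, plus strand: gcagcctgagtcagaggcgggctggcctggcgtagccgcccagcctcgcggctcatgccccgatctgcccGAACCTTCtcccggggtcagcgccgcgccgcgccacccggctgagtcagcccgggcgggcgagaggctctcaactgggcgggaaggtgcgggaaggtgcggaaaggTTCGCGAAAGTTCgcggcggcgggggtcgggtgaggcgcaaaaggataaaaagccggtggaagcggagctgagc
HSPA8, chr11:123062137-123062386, minus strand: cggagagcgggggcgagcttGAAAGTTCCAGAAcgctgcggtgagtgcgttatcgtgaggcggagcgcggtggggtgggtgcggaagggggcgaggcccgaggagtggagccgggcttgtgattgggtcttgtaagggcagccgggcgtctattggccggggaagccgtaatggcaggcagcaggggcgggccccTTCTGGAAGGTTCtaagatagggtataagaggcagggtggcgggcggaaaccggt
BAG3, chr10:119651130-119651379, plus strand: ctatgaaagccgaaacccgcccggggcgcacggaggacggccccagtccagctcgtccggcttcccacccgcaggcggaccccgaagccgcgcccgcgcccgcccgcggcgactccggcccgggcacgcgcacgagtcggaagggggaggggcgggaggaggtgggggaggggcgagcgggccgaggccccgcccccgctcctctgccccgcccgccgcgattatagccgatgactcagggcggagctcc

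The upstream regions of HSPA1A and HSPA1B were identical at 235 of 249 bases (94.4%) when shifted by 1 base. Each held a single GAANNTTC match, at positions -106 to -99 for HSPA1A and -105 to -98 for HSPA1B, where the first transcribed base is +1. Each also held the TATA box letters TATAAA, at -30 to -25 and at -29 to -24. HSPA6 held 3 alternating units of GAA and TTC, with 2 free bases between units, at -74 to -62, and a GAANNTTC match farther out at -180 to -173. The HSPA8 region held a pair of such stretches of 3 units, at -230 to -218 and at -55 to -43. BAG3 had no match in its window. A match describes the letters and does not show that a factor binds there, and the absence of one says nothing about sequence outside the window.

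All 10 members had at least 1 promoter window, from 250 bases before to 50 after a start, and 14 windows in all, since some genes have several starts. A pair of units in either order (GAANNTTC or TTCNNGAA, both strands, which read alike) was found in windows of 8 members. Members are counted by gene, over any of their windows, while the shares given for comparison are of single windows, so the units are unlike. Among all 35116 windows, 6.77% held GAANNTTC, 7.74% held TTCNNGAA and 13.5% held either. A stretch of 3 units, which contains both pairs in overlap, was present for HSPA6, HSPA8, HSP90AA1 and HSPD1, and in 0.49% of all windows. TATAAA on either strand was found for HSPA1A and HSPA1B and in 11.5% of all windows. The members without a pair were HSPH1 and BAG3. Whether a match goes with the direction of a difference was not tested. By the probes that represent them, HSPA8 and HSPD1, each with more than 1 stretch of 3 units, were lower under OA. The stretches of HSPA8 lay apart, and those of HSPD1 overlapped, at -245 to -233 and at -240 to -228. HSPA6 and HSP90AA1, also with 3 units, were higher, as were HSPH1 and BAG3, without a match in the window.

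**Figure D4:**
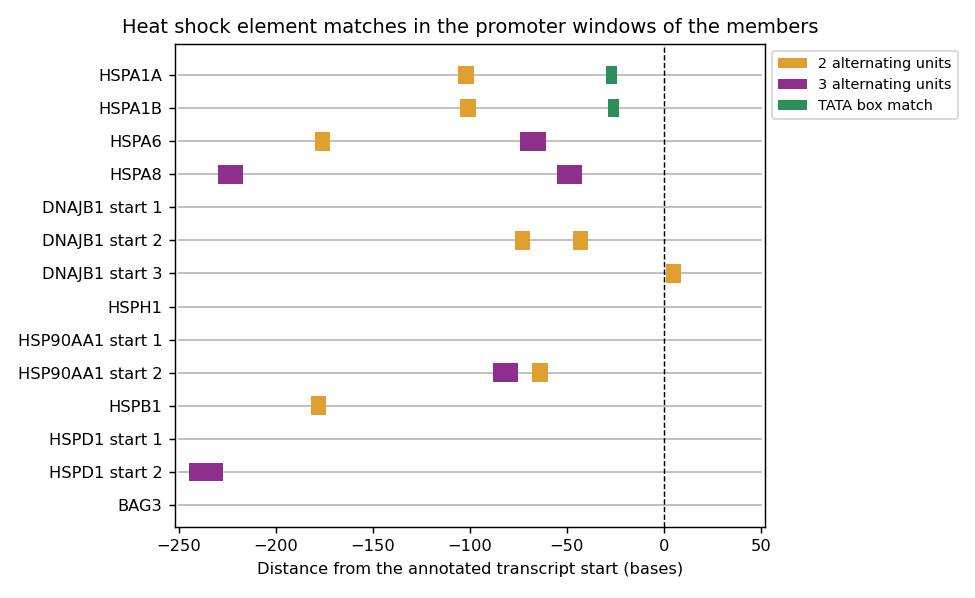
Positions of heat shock element matches with 2 units (orange) or 3 units (purple) and of TATA box matches (green) in the promoter windows of the members, by distance in bases from the annotated start (dashed line). HSPA6, HSPA8, HSP90AA1 start 2 and HSPD1 start 2 hold stretches of 3 units, and HSPH1 and BAG3 hold no match.

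Among the co-chaperones of HSP70, DNAJB1 (HSP40) stimulates the ATP hydrolysis by which HSP70 grips its clients. Its intensity was 21230 in control cells, 6777 under CAN and 21735 under OA. The log2 difference was -1.51 ± 0.20 for CAN and -0.22 ± 0.20 for OA (software error). So the CAN signal was 2.85-fold below control and the OA signal within 1.5-fold of it. The small OA difference changed sign without scaling (0.03).

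HSPH1 (HSP105) belongs to the HSP110 family and exchanges the nucleotide of HSP70. HSPH1 probe 1 gave 6672 in control cells, 7799 under CAN and 24530 under OA, and probe 2 gave 2768, 4255 and 8599. Both probes were highest under OA. The log2 differences of probe 1 were 0.36 for CAN and 1.62 for OA, and those of probe 2 were 0.76 and 1.38. The probes were thus 3.08-fold and 2.60-fold higher under OA, and under CAN only probe 2 passed 1.5-fold (1.69-fold).

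BAG3 binds HSP70 together with small heat shock proteins and directs clients towards autophagy. Its signal was 2668 in control cells, 7478 under CAN and 7209 under OA. The log2 differences were 1.63 ± 0.20 for CAN and 1.18 ± 0.20 for OA (software error). Of the 10 probes that represent the members, those of BAG3 and HSPA6 were past 1.5-fold on the higher side under both agents, and BAG3 had the larger CAN difference. Across the same 6 alternatives the BAG3 difference was 1.49 to 1.70 for CAN and 1.06 to 1.43 for OA.

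HSP90AA1 encodes the stress-inducible cytosolic HSP90, and its 3 probes disagreed. The signals of probe 1 were 27678 in control cells, 23921 under CAN and 62195 under OA. Probe 2, which had 10 spots, gave 2130, 1598 and 893. Probe 3 gave 1223, 886 and 373. Probe 1 was highest under OA and the other two were lowest there. The log2 differences for OA were 0.91 for probe 1, -1.51 for probe 2 and -1.97 for probe 3. Before scaling, the unflagged spots of probe 2 (8, 8 and 10) ranged from 2051 to 2163 for control, 1520 to 1716 for CAN and 830 to 941 for OA. The SD of its OA difference from replicate spots was 0.06. Under CAN the 3 probes gave -0.07, -0.28 and -0.33, each within 1.5-fold.

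The array design listed HSP90AA1 probes 1 and 3 under the same transcript and probe 2 under another. RefSeq gives the gene distant starts, and the window of start 2 held 3 alternating units at -88 to -76, while that of start 1 held none. Because the probes with opposite directions shared a listed transcript, the listing alone does not sort them by start. Probe sequences were not used here, so what each probe measures was not tested. The median over the probes turned the sign of the OA difference, to -1.51.

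HSPB1 (HSP27) is a small heat shock protein that holds unfolded proteins without using ATP. Probe 1 was bright and nearly level, with 73051 in control cells, 75775 under CAN and 88041 under OA. Its log2 differences were 0.19 for CAN and 0.01 for OA. The dimmer HSPB1 probe 2, listed under the same transcript, gave 771, 436 and 212, which were log2 differences of -0.68 and -2.12. So probe 2 was 1.61-fold lower under CAN and 4.33-fold lower under OA, while probe 1 stayed within 1.5-fold under both agents.

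HSPD1 (HSP60) folds proteins inside mitochondria, in a ring that is closed by HSPE1 (HSP10), whose gene lies next to that of HSPD1. The HSPD1 signal was 59047 in control cells, 15200 under CAN and 44118 under OA. HSPE1 gave 125461, 19698 and 96260. Both were lowest under CAN. The log2 differences were -1.82 and -2.53 for CAN and -0.68 and -0.64 for OA. Under OA, the HSPD1 difference was no longer past 1.5-fold with quantile normalization (-0.50), without scaling (-0.42) or in the table of normalized values (-0.48), and that of HSPE1 was not with any of these either (-0.40, -0.38 and -0.40).

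The genes whose pair of differences (CAN, OA) lay closest to that of a member were looked up for HSPA6 and HSPA1B, which had the longest pairs (3.95 and 2.11), among 14222 genes well above background on all 3 arrays. The nearest to HSPA6 was HSPA1L, an HSP70 gene beside HSPA1A on chromosome 6, with 1.29 for CAN and 3.71 for OA, at a distance of 0.04. ZNF703 (0.15), DHRS2 (0.20), ZNF268 (0.25) and DLL1 (0.25) followed. For HSPA1B the nearest were SCFD2 (0.03), SIX5 (0.05), MEIS1 (0.07), JARID2 (0.08) and PIGL (0.09), and 19 genes lay within 0.25. Likeness here rests on 2 differences from 1 shared control array, and for HSPA6 on probe 1. With the median over its probes (0.24 and 1.81) its pair would be shorter than that of HSPA1B. HSPA6 probe 1 and HSPA1L were also alike in intensity, with 119 and 112 in control cells, where the floor was 35. Under CAN they gave 261 and 247, and under OA 1906 and 1744. Whether each probe reads only its own gene was not tested, so they may not be separate measurements.

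The other genes of the chaperone system were taken from lists of each group, written with earlier results known. Their counts are read against all genes compared, of which 27.5% were higher and 34.1% lower under CAN, and 28.1% higher and 28.8% lower under OA. Of 6 further cytosolic HSP70 and HSP110 genes with a measured signal, 2 were higher and 4 lower under CAN (median -0.85), and 4 were higher and 0 lower under OA (median 1.36), counts that were the same in all 6 alternatives. The shares lower under CAN and higher under OA were above those of all genes. HSPA1L gave 112 in control cells, a dim signal, 247 under CAN and 1744 under OA, and whether its probe reads only this gene was not tested. HSPA2, an HSP70 best known from germ cells, gave 310, 152 and 3087. Its log2 differences were -0.89 for CAN and 3.06 for OA, in opposite directions. HSPA14, which sits at the ribosome, was also lower under CAN (-0.97) and higher under OA (1.19). HSPA12A was higher under both (1.76 and 1.52), and HSPA4, an HSP110 relative, was lower under CAN (-0.89) and near control under OA (-0.08) by its brighter probe, while its other probe gave -1.38 for OA.

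Of 9 further J-domain genes, 4 were higher and 3 lower under CAN, and 4 were higher and 2 lower under OA. The lower shares were near or below those of all genes. DNAJB2, which hands HSP70 clients to the proteasome, had signals of 6278, 38805 and 28917 and differences of 2.77 for CAN and 1.95 for OA. DNAJC5 was higher under both (1.69 and 0.90, with 0.54 for OA by its other probe), as was DNAJC2 (1.02 and 1.55), while DNAJA1 reached 1.39 under CAN and 0.58, just under 1.5-fold, under OA. DNAJA2 was lower under both (-1.27 and -0.78), and so was DNAJB6 (-1.12 and -0.59), which limits protein aggregation. DNAJB5 was lower under CAN (-0.83). Without scaling, 6 of the 9 were higher and 0 lower under OA.

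Of 7 exchange factors and other HSP70 regulators, 3 were higher and 3 lower under each agent, both above the shares of all genes. The lower counts depended on the setting. Under OA, 2 of 7 were lower with scaling by the probes well above background on all arrays and in the table of normalized values. That is near the share of all genes. Without scaling, 4 were higher and 1 lower under OA. Under CAN, 2 were lower with the normexp correction. BAG1, an exchange factor, gave 5982 in control cells, 22611 under CAN and 15914 under OA, with differences of 2.06 and 1.16. BAG5 was likewise higher under both (1.12 and 1.43). STUB1 (CHIP), the ubiquitin ligase that marks HSP70 clients for breakdown, was lower under both (-1.76 and -1.43), as was ST13 (-0.78 and -0.77). BAG2, which holds STUB1 back, was higher under CAN (1.80) and lower under OA (-0.65). BAG4 was lower under CAN (-0.90), and HSPBP1 was higher under OA (0.77).

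HSP90AB1, the constitutive HSP90, and 10 co-chaperones of HSP90 differed in both directions, with 2 of 11 higher and 4 lower under CAN (median -0.17) and 3 higher and 4 lower under OA (median -0.36). These shares were near or below those of all genes, except for 4 of 11 lower under OA, which was above and became 6 of 11 with the median over probes. PTGES3 (p23), which stabilises the closed form of HSP90, was lower under both agents (-1.46 and -1.58). FKBP5 (-1.05 and -1.11) and UNC45A (-0.99 and -1.28) were lower under both as well, though the other UNC45A probe gave -0.53 for OA. CHORDC1 was higher under both (1.29 and 0.82), CDC37, which brings kinases to HSP90, under CAN (1.08), and SUGT1 (1.14) and AHSA1 (0.71) under OA. HSP90AB1 itself, named after its values were seen, gave -0.47 and -0.72.

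The TRiC chaperonin folds actin and tubulin in the cytosol. By the brightest probe of each, 0 of its 8 subunits were higher under either agent, 4 were lower under CAN (median -0.62) and 5 under OA (median -1.09), under the reported setting and in all 6 alternatives. Among all genes 34.1% were lower under CAN and 28.8% under OA. Another probe of TCP1 gave 1.35 for OA, and with the median over probes 1 subunit, TCP1, was higher under OA. CCT8 had signals of 10517, 3079 and 4652, and differences of -1.63 and -1.43. CCT6A was also lower under both (-1.59 and -1.15), as was CCT5, whose OA signal was not well above background and which was at least 4.20-fold lower there. The CCT5 probe was dim on every array, with 204 in control cells, 71 under CAN and 56 under OA. The next dimmest subunit, TCP1, gave 4637 in control cells. The lower counts under both agents include CCT5. CCT3 was lower under CAN (-0.82), and CCT7 (-1.52) and CCT4 (-1.03) were lower under OA. The median of all genes was -0.16 under CAN and 0.01 under OA.

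Among 6 further small heat shock proteins with a measured signal, HSPB8, the partner of BAG3, gave 215 in control cells, 755 under CAN and 937 under OA, with differences of 1.95 and 1.87. CRYAB, αB-crystallin, gave 249, 224 and 1113 and differed by 1.91 under OA and by -0.02 under CAN. CRYAA was higher under both (0.96 and 0.76) by its brighter probe. HSPB2 was not well above background on the treated arrays and was at least 2.18-fold lower under CAN. In all, 2 of the 6 were higher and 1 lower under CAN, near or below the shares of all genes, and 3 were higher and 1 lower under OA, where the lower call of HSPB2 (at least 1.08-fold) did not hold with dim signals set to the floor of the array.

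HSF1, the main heat shock transcription factor, had a signal of 20693 in control cells, 49703 under CAN and 19896 under OA. The log2 differences were 1.40 for CAN and -0.31 for OA, and those of another of its probes were 1.59 and -0.16. HSF2 was lower under CAN (-1.61) and near control under OA (-0.20). HSBP1L1 was lower under OA (-1.37). These were the HSF1 pathway regulators past 1.5-fold among the 5 measured, by the brightest probe of each. HSBP1, which binds HSF1 trimers, gave -0.22 and -0.12 by that probe and -1.26 and -1.63 by another. Activity of HSF1 depends on its phosphorylation and trimer form, which the arrays did not measure.

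**Figure D5:**
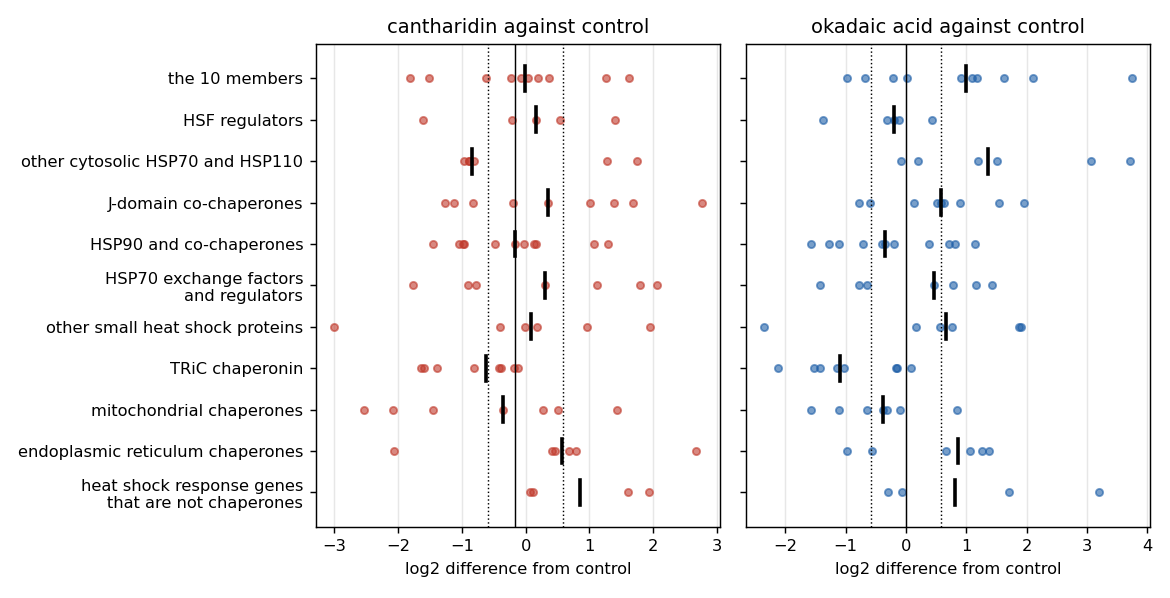
Log2 difference from control (horizontal axes) of every measured gene (points) in the member set and in each chaperone list, under cantharidin on the left and okadaic acid on the right, with the list median as a thick bar. The solid line is the median of all genes (-0.16 and 0.01) and dotted lines mark 1.5-fold. The member median is near 0 under cantharidin and at 1.0 under okadaic acid, and the TRiC median lies at -0.62 and -1.09.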

How the data were processed

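Gene expression was measured on 3 Agilent 1-colour arrays of PANC-1 RNA, 1 each for control, CAN and OA, and titles of the samples gave the groups. Scanner output was deposited by the authors as spot intensity values made with Agilent Feature Extraction 11.0.1.1, background-subtracted and detrended within each array and not scaled between arrays, per the file headers, together with flags for outlier spots and for signal well above background. A second deposited table held normalized log2 values for 30923 probes. How it was made is not given in the sources used here. Its columns correlated with the log2 intensity of their own array (r of 0.998 to 0.999) and had medians of 7.74, so its scale is log2 and its normalization method stays unknown. It was used as an alternative.

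Log2 intensity was averaged over unflagged spots per probe, and each array's 75th percentile was subtracted, with no pseudocount. Probes well above background numbered 24768 for control, 25103 for CAN and 23071 for OA, and no spot was saturated. A gene took the values of its brightest probe (mean log2 over the arrays), and was compared when at least 1 of the 2 arrays had it well above background. Where 1 side was not, a fold is given as "at least", with the dim side set to its own signal or, if larger, the floor of that array. Accessions without version were matched to RefSeq (GRCh38.p14), which named 25705 of 34041 probes. The grid annotation used hg19, so coordinates are given only for RefSeq sequences.

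The threshold of 1.5-fold is that of the study. Named genes were every member with all its probes, list members past 1.5-fold (where more than 5 of a list passed in a comparison, the 3 largest per direction among genes well above background on both arrays), and the 5 genes nearest to each of the 2 members with the longest pair of differences. The members and lists were chosen with earlier results of these data known. HSPB11 of the lists had no matched probe. Alternatives were the normexp background correction (offset 50, on median spot and background signals), quantile normalization, scaling to the median, scaling by the probes well above background on all arrays, no scaling, a filter on all 3 arrays or none, the table of normalized values, a 2-fold threshold, the median over a gene's probes, and dim signals set to the floor. Software was R 4.3.3 (limma 3.58.1) and Python 3.11.15 (numpy 2.4.6, pandas 2.3.3, matplotlib 3.10.9). Precision is limited by the number of arrays.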

Additional observations from a re-analysis of the deposited data

Results flagged for a closer look

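In all, 5 genes of the members and lists were past 1.5-fold on opposite sides of control under CAN and OA. How many of all genes did the same was not counted, so the number is not read as a trait of the chaperones. Among all genes 27.5% were higher and 34.1% lower under CAN, and 28.1% and 28.8% under OA. Each of the 5 genes rests on 1 array per agent and on the shared control array, and the difference between the agents' effects was not tested. HSPA1A had log2 differences of -0.61 for CAN and 1.09 for OA. HSPA2 had -0.89 and 3.06, from signals of 310 in control cells, 152 under CAN and 3087 under OA. For HSPA14 they were -0.97 and 1.19. BAG2 went the other way, with 1.80 for CAN and -0.65 for OA, as did DNAJA3, a J-domain protein of mitochondria, with 1.44 and -1.11. The signs were the same for each gene in 6 of 6 alternatives of scaling or background correction. HSPA1A under CAN passed 1.5-fold in 2 of the 6, and BAG2 under OA in 3 of the 6.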

How the results depend on the processing

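Of 96 recomputed counts and medians over the members, 78 stayed within the spot noise or within 1.5 times the reported count and 18 moved. Part of the 78 was fixed in advance, because all 15 member probes were well above background on all 3 arrays. The filter on all 3 arrays, no filter and dim signals set to the floor therefore could not change a member value. So the 78 is not a measure of stability. The median OA difference of the members was 0.88 with median scaling, 1.16 with quantile normalization, 1.26 without scaling, 1.13 in the table of normalized values and 0.44 with the median over probes. The CAN median was -0.15 without scaling and -0.24 over probes, and the median of OA against CAN was 1.05 with median scaling, 1.60 without scaling and 1.04 over probes. The number of members lower under OA was 1 with quantile normalization, without scaling and in the table of normalized values, 0 at 2-fold and 4 over probes. With the median over probes, 1 member was higher under CAN and 3 were lower under OA than under CAN, a count that was 2 with median scaling. HSP90AA1 reversed over its probes, to -1.51 for OA against control and -1.23 for OA against CAN, because its probes differ in sign. Without scaling, the median of all genes moved from -0.16 to -0.30 for CAN, from 0.01 to 0.26 for OA and from 0.13 to 0.52 for OA against CAN, and genes called higher and lower went from 4545 and 4656 to 5910 and 3615 for OA and from 4781 and 3616 to 7629 and 2254 for OA against CAN. With median scaling the median of all genes was -0.11 for OA and -0.02 for OA against CAN. HSPA6 was dim in control cells, and its OA difference of 3.74 was 2.93 with normexp and 1.81 over its probes. Causes other than those given were not tested. No paired analysis was possible because each group had 1 array.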

Other observations

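Chaperones outside the cytosol also differed. In the endoplasmic reticulum, HSPA5 (BiP), the HSP70 of that compartment, had signals of 4132 in control cells, 24091 under CAN and 10350 under OA, which were log2 differences of 2.68 and 1.07. DNAJB11 (0.80 and 1.37) and DNAJB9 (0.68 and 1.26), J-domain partners of HSPA5, were higher under both agents. HSP90B1, the HSP90 of the compartment, was within 1.5-fold under CAN (0.42) and higher under OA (0.67), though its other probe gave -0.02 for OA. SERPINH1 (HSP47), the collagen chaperone, was lower under both (-2.07 and -0.98). In all, 3 of 6 endoplasmic reticulum genes were higher and 1 lower under CAN, and 4 higher and 1 lower under OA. Among all genes 27.5% were higher and 34.1% lower under CAN, and 28.1% and 28.8% under OA.

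In mitochondria, 1 of 7 further chaperone genes was higher and 3 lower under each agent, and under OA the lower count was 2 in 4 of 6 alternatives of scaling or background correction. The shares of all genes were 27.5% higher and 34.1% lower under CAN, and 28.1% and 28.8% under OA. TRAP1, the mitochondrial HSP90, was lower under both (-2.08 and -1.57), CLPB under CAN (-1.46), and GRPEL1, an exchange factor, was higher under OA (0.85). HSPA9, the HSP70 of mitochondria, stayed within 1.5-fold (0.51 and -0.09). Among heat shock response genes that are not chaperones, IER5, an immediate early gene, gave 6534 in control cells, 22710 under CAN and 71688 under OA, with differences of 1.94 and 3.20. DEDD2 was also higher under both (1.61 and 1.70), and the ubiquitin gene UBB was within 1.5-fold (0.12 and -0.07).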
